A study of Mus musculus with 24 samples.

Results

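The 9 genes of replication-independent histone variants were followed by name in the read counts of activated mouse B cells, with and without the elongation factor Spt5: H3f3a, H3f3b, H2afz, H2afv, H2afx, H2afj, H2afy, H1f0 and H1fx. They were taken by gene name, from a list chosen with earlier results of these data known. All 9 were among the 14106 genes of the deposited RNA-seq table. All 9 also passed the filter on low counts, which left 12024 tested genes. The RNA-seq part of the study had 3 libraries per group, made from poly(A) RNA of splenic B lymphocytes stimulated in culture with interleukin 4 and lipopolysaccharide. Cells were activated for 28 h, then received 2 µM 4-hydroxytamoxifen (4-HT) for 32 h, and were harvested at 60 h. The WT group had the genotype Rosa26ERT2-cre/+, a Cre recombinase that 4-HT switches on, and the Spt5-depleted group had Supt5hFl/- Rosa26ERT2-cre/+, in which one copy of the Spt5 gene is floxed and the other null. Both groups therefore carried Cre and received the drug, and the WT cells lacked the null allele. One label describes the cells as mature, another as immature, and neither an age nor a separate mouse per library is given. The p-values below therefore measure spread among libraries that may be technical replicates.

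The bulk of a nucleosome is built from canonical histones, whose genes are transcribed in S phase and give mRNAs that end in a stem-loop without a poly(A) tail. Variant histones come from separate genes, mostly with polyadenylated mRNAs, that are transcribed through the whole cell cycle, and dedicated chaperones place them in chromatin outside DNA replication. H3.3 and H2A.Z mark active promoters and enhancers, H2A.X is phosphorylated around DNA breaks, including those made during class switching in B cells, macroH2A carries a large non-histone domain, and H1.0 and H1X are linker histones. H2afx is a partial exception to the group's name, since it is known to give both a stem-loop mRNA and a polyadenylated mRNA. In poly(A) libraries mainly the polyadenylated form is read.

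WT libraries held 23340978 to 25649611 counts and Spt5-depleted libraries 17306549 to 21441575. Supt5, the targeted gene, fell from 171 ± 18.7 to 11.1 ± 2.26 CPM (CPM, the TMM-normalised read count; ± SD of 3 libraries each; log2 fold change -3.94 ± 0.14 SE, adjusted p = 1.26e-10). The libraries also divided by sex-linked RNA exactly as they did by genotype: Xist, the RNA of the inactive X chromosome, had 468 to 915 CPM in WT and 1.00 to 1.73 CPM in Spt5-depleted libraries, and Y-linked Ddx3y had 0 to 0.0421 and 39.3 to 44.1 CPM. Spt5 depletion and this sex-linked difference cannot be told apart in any comparison given here. B lineage markers summed to 13009 to 13872 CPM in WT and 13172 to 15360 CPM in depleted libraries. Most of that sum was Cd74, with a mean of 8038 CPM in WT and 9372 CPM in depleted libraries, so it mainly follows that gene. Of 8 tested B lineage markers 0 were higher and 2 lower, where 31.8% of all tested genes were higher and 30.6% lower. Blnk, an adaptor of B cell receptor signalling, was among the lower ones (log2 fold change -0.74).

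Of the 9 variant genes 7, all but H3f3b and H2afy, rose in Spt5-depleted cells. H2afy, the macroH2A1 gene, was the 1 member that fell, and H3f3b, one of the pair of H3.3 genes, did not pass the test. In count terms 7 of 9 members were higher and 1 lower at an adjusted p under 0.05 (edgeR quasi-likelihood test, Benjamini-Hochberg over all tested genes), where 31.8% of all tested genes were higher and 30.6% lower. The median log2 fold change of the 9 was 0.65, and that of all tested genes 0.0047. In the same 8 genes the 3 depleted libraries lay wholly on one side of the 3 WT libraries, 7 above and 1 below, where 34.2% of all tested genes lay wholly above and 33.3% wholly below. The sizes were moderate: 1 member, H1fx, rose by more than 2-fold, which 10.0% of tested genes did. In bulk RNA, a change in the mix of cells and a change in mRNA per cell cannot be told apart, and a global gain or loss of mRNA could not be seen without spike-in RNA.

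**Figure D1:**
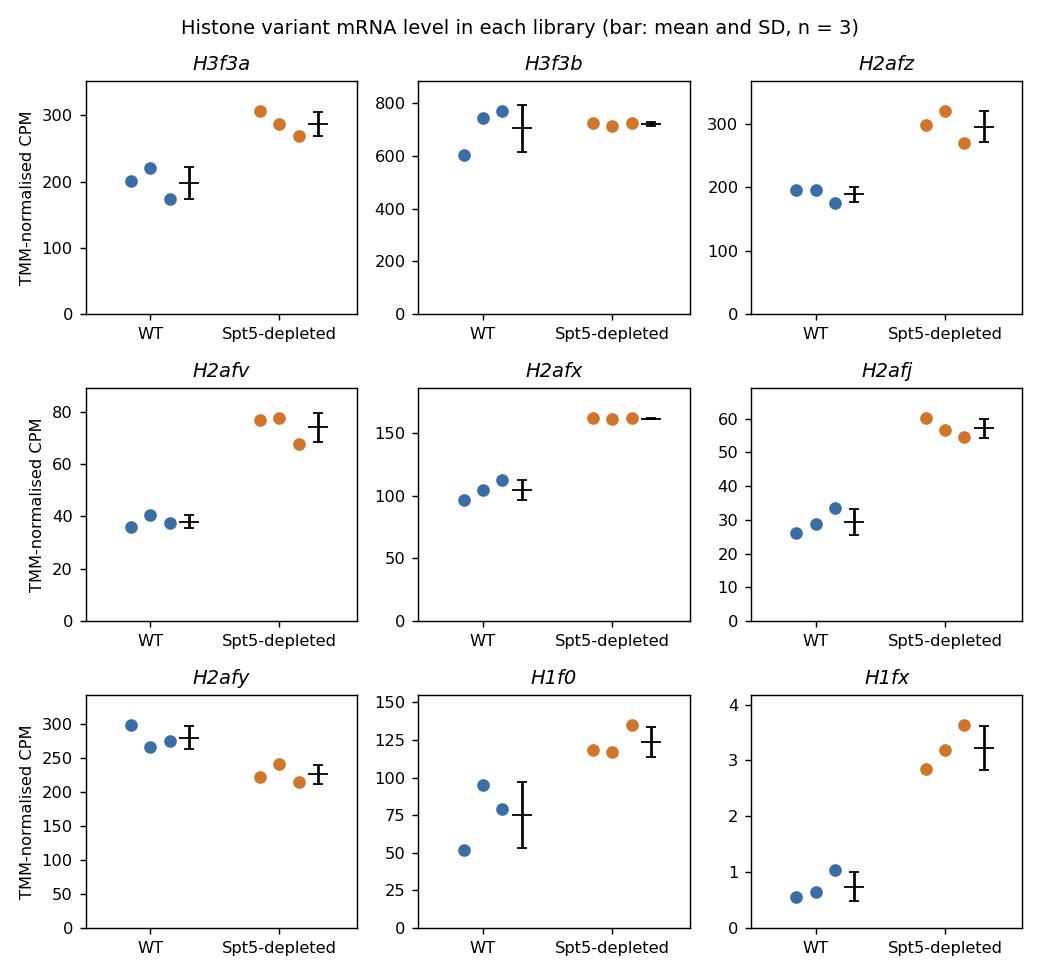
Level of each histone variant mRNA in TMM-normalised CPM (vertical axes, each starting at 0 with its own scale) in the 3 WT libraries (blue) and the 3 Spt5-depleted libraries (orange), with the mean and SD beside them. The depleted libraries lie above the WT libraries in 7 panels, below them in the H2afy panel, and within their range in the H3f3b panel.

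H3f3a and H3f3b encode the same protein, the H3 variant H3.3, from separate loci, and their mRNAs differed in response. H3f3a had 201, 221 and 173 CPM in WT and 306, 287 and 269 CPM in depleted libraries. Every depleted library was above every WT library. H3f3a rose by a log2 fold change of 0.53 ± 0.10 SE (1.45-fold, 95% interval 1.25 to 1.67; adjusted p = 0.000266).

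H3f3b had 601, 741 and 768 CPM in WT and 723, 713 and 725 CPM in depleted libraries. The depleted values lay inside the WT range and close together, with a coefficient of variation of 0.906% against 12.7% in WT. Its log2 fold change was 0.035 ± 0.10 SE (adjusted p = 0.771), and the 95% interval of the fold ran from 0.887 to 1.18. A change within those bounds would not have been detectable here. The direction of H3f3b rested on 1 library: without WT replicate 1, its lowest, the log2 fold change was -0.072 (adjusted p = 0.496).

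Reads of H3f3a made up 25.0%, 23.0% and 18.4% of the reads of the H3.3 gene pair in WT libraries and 29.7%, 28.7% and 27.0% in depleted libraries. These are shares of reads, not of molecules, since the mRNAs differ in length. All 3 depleted shares were above all 3 WT shares. The log2 ratio of H3f3a to H3f3b, which needs no scaling between libraries, went from -1.82 ± 0.29 to -1.33 ± 0.10 (SD, n = 3 each), a difference of 0.50 or 1.41-fold (exact two-sided permutation p = 0.1, the smallest that 3 against 3 libraries allow). The summed level of both genes was 902 ± 87.3 CPM in WT cells against 1007 ± 18.6 CPM after depletion (SD, n = 3 each). Both genes have processed pseudogenes elsewhere in the genome, and the labels do not say how reads with more than 1 best place were counted.

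The stretches upstream of the H3.3 gene starts are unlike each other, and they are printed to show that difference. They are the 250 bases before the RefSeq start of each gene in GRCm38.p6, read on the gene's strand, and capitals mark every match to the motifs searched, on either strand: the CCAAT box, the GC box GGGCGG, the TATA box TATAAA, the E-box CACGTG, the E2F-type letters TTTGGCGC or else TTTCCCGC, and the cyclic AMP response element TGACGTCA. The H3f3a stretch is chr1:180813606-180813855 and the H3f3b stretch chr11:116024505-116024754, both on the minus strand.
H3f3a: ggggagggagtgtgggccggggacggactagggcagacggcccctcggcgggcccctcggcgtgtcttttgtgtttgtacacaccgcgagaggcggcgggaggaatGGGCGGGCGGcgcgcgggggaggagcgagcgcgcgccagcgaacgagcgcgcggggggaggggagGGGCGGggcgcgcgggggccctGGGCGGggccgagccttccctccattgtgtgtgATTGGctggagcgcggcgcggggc
H3f3b: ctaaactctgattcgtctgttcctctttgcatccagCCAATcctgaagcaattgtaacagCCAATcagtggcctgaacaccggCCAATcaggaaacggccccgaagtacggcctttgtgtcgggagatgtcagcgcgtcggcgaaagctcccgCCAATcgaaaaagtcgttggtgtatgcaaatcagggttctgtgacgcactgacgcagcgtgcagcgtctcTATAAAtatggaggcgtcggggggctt
The H3f3a stretch was 77.2% G and C, with 4 matches to GGGCGG, 2 of them overlapping, and 1 to CCAAT. The H3f3b stretch was 54.0% G and C, with 4 matches to CCAAT, 0 to GGGCGG, and a TATAAA that begins 27 bases before the start. Among 27025 gene starts, 0.918% had 4 or more matches to CCAAT in the same window, 4.11% had 4 or more to GGGCGG, and 13.0% had TATAAA.

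H2afz and H2afv encode the near-identical proteins H2A.Z.1 and H2A.Z.2, and both mRNAs rose. H2afz had 196, 195 and 176 CPM in WT and 297, 320 and 270 CPM in depleted libraries (log2 fold change 0.65 ± 0.09 SE, adjusted p = 2.12e-05). H2afv had 35.9, 40.7 and 37.5 CPM in WT and 77.0, 77.5 and 67.7 CPM in depleted libraries (log2 fold change 0.96 ± 0.09 SE, adjusted p = 6.30e-07). For each gene the lowest depleted library was above the highest WT library. Together they came to 227 ± 12.0 CPM in WT cells against 370 ± 29.8 CPM after depletion (SD, n = 3 each). H2afz is another gene with processed pseudogenes, so its count carries the same reservation as those of the H3.3 genes.

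The gene that contributed fewer reads rose by the larger factor. Reads of H2afz were 84.5%, 82.7% and 82.4% of the reads of the pair in WT and 79.4%, 80.5% and 80.0% in depleted libraries, without overlap between the groups. The log2 ratio of H2afz to H2afv went from 2.31 ± 0.12 to 2.00 ± 0.05 (SD, n = 3 each), a difference of -0.31 (exact two-sided permutation p = 0.1, the smallest possible here). In all 3 such ratios were computed, 1 for each related pair of members. Adjusted over the 3 of them by the Benjamini-Hochberg method, each exact permutation p was again 0.1.

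**Figure D2:**
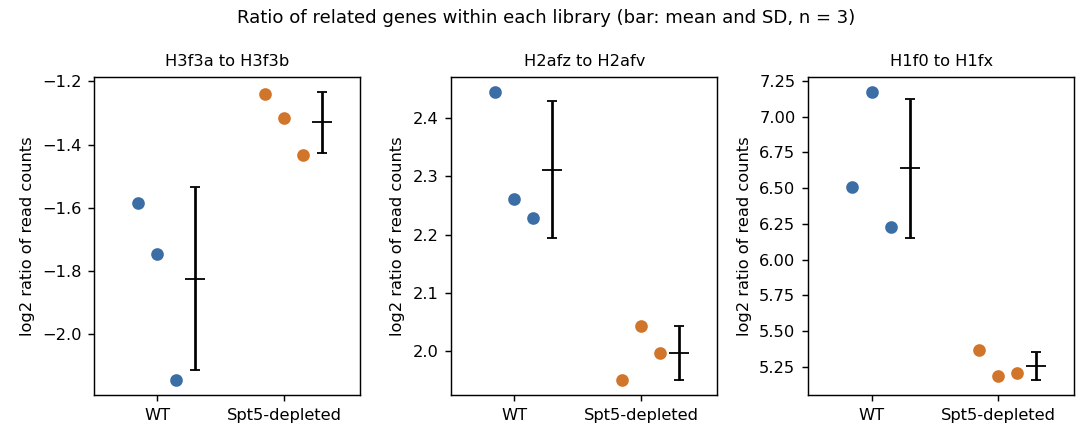
Log2 ratio of read counts (vertical axes, which do not start at 0) of H3f3a to H3f3b, H2afz to H2afv and H1f0 to H1fx in each WT (blue) and Spt5-depleted (orange) library, with the mean and SD beside them. The groups do not overlap in any panel, with differences of 0.50, -0.31 and -1.38, and an exact permutation p = 0.1 in each.

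The stretches upstream of the H2A.Z genes are shown because both windows hold CCAAT, the core of the site bound by the factor NF-Y. The H2afz stretch is chr3:137864237-137864486 on the plus strand and the H2afv stretch chr11:6444444-6444693 on the minus strand, with capitals as above.
H2afz: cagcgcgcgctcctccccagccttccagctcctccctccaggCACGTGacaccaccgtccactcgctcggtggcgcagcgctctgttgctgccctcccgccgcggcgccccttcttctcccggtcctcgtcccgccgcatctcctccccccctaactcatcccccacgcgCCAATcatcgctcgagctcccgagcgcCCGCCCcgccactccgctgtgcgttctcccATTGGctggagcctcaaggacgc
H2afv: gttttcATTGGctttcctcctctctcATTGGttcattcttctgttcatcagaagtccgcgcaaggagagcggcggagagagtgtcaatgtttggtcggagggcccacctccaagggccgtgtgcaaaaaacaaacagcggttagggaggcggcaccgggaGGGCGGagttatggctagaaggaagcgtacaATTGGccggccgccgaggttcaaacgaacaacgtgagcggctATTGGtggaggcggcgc
The H2afz stretch had 2 matches to CCAAT, 1 to GGGCGG, and the E-box CACGTG, which begins 208 bases before the start and was found in 6.05% of all windows. The H2afv stretch had 4 matches to CCAAT and 1 to GGGCGG.

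H2afx encodes H2A.X, whose tail is phosphorylated by the kinases ATM, ATR and DNA-PK at DNA breaks. It had 96.4, 105 and 113 CPM in WT and 162, 161 and 162 CPM in depleted libraries. The 3 depleted values were almost equal, with a coefficient of variation of 0.229%, and all were above the WT values. Of all genes 64.5% had a larger coefficient of variation in WT than in depleted libraries. H2afx rose by a log2 fold change of 0.63 ± 0.09 SE (1.55-fold, 95% interval 1.36 to 1.75; adjusted p = 1.69e-05). These counts do not measure the protein or its phosphorylation. A rise of the polyadenylated form cannot be told apart from a shift between the stem-loop and polyadenylated ends of this mRNA.

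H2afj encodes H2A.J, an H2A variant that differs from canonical H2A mainly at its C-terminal end and is known to build up in senescent cells. It had 26.0, 28.7 and 33.5 CPM in WT and 60.1, 56.7 and 54.6 CPM in depleted libraries. The lowest depleted value was above the highest WT value. H2afj rose by a log2 fold change of 0.96 ± 0.10 SE (1.94-fold, 95% interval 1.67 to 2.26; adjusted p = 1.90e-06), which is close to the change of H2afv. Its upstream stretch, chr6:136807998-136808247 on the plus strand, is shown as that of the third H2A gene with CCAAT in the window.
H2afj: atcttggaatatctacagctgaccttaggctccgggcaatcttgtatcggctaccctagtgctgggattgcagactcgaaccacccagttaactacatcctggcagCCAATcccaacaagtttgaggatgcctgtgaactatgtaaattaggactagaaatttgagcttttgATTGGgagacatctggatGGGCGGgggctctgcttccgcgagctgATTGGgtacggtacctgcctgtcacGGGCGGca
It had 3 matches to CCAAT and 2 to GGGCGG, and at 51.6% it had the lowest G and C content of the member windows.

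H2afy encodes macroH2A1, an H2A variant with a macrodomain that is enriched on the inactive X chromosome and in silent chromatin. It had 298, 265 and 276 CPM in WT and 223, 241 and 214 CPM in depleted libraries. The highest depleted library was below the lowest WT library. The fall was small, with a log2 fold change of -0.31 ± 0.09 SE (adjusted p = 0.00618; 95% interval -0.49 to -0.12), and 36.7% of tested genes changed by no more than that in either direction. Scaled by library totals alone it was not called (log2 fold change -0.15, adjusted p = 0.144). H2afy and Xist were lower in the same libraries, and a link between them was not tested. Counts per gene do not separate the splice forms of macroH2A1.

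The linker histone genes both rose, by different amounts. H1f0 encodes H1.0, the linker histone that accumulates in resting and differentiated cells, and it had 51.8, 95.2 and 78.9 CPM in WT and 119, 117 and 135 CPM in depleted libraries. Its groups did not overlap, but the WT libraries were widely spread, with a coefficient of variation of 29.2%. The log2 fold change was 0.72 ± 0.19 SE (adjusted p = 0.0111), and without WT replicate 3 it was no longer called (log2 fold change 0.75, adjusted p = 0.0879).

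H1fx encodes H1X, a divergent linker histone, and it was a low-count gene here. It had 13, 14 and 25 counts in WT and 51, 68 and 84 in depleted libraries, which is 0.547, 0.636 and 1.03 CPM against 2.85, 3.18 and 3.63 CPM. The groups were far apart, and H1fx rose by a log2 fold change of 2.12 ± 0.27 SE (4.34-fold, 95% interval 2.90 to 6.49; adjusted p = 9.51e-06). Of all tested genes 2.40% rose by more. The log2 ratio of H1f0 to H1fx went from 6.64 ± 0.48 to 5.25 ± 0.10 (SD, n = 3 each), a difference of -1.38 (exact two-sided permutation p = 0.1, the smallest possible here).

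**Figure D3:**
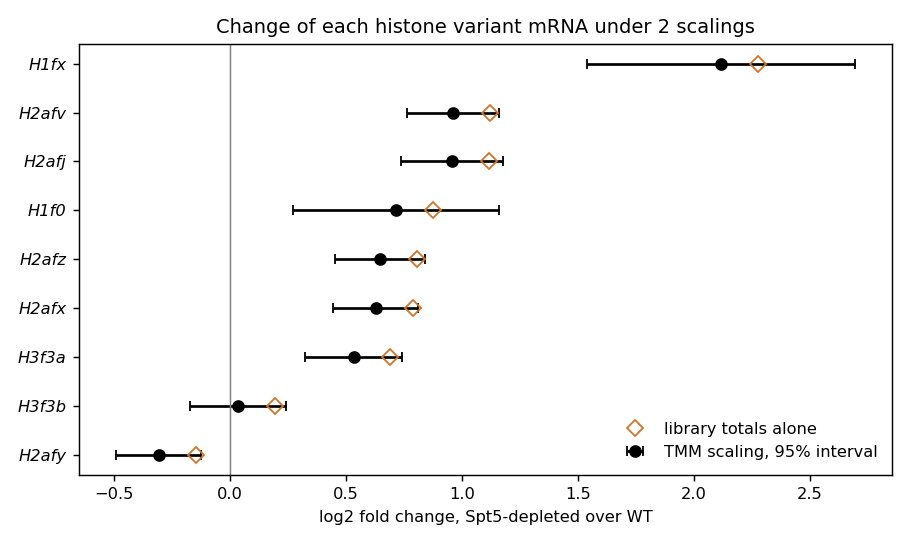
Log2 fold change of each member in Spt5-depleted over WT cells (horizontal axis) with TMM scaling (black points with 95% intervals) and with library totals alone (orange diamonds). The intervals of 7 genes lie above 0, that of H2afy below it, and that of H3f3b spans it, and library totals move every gene to the right.

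The choice of scaling shifts all members together. With library totals alone the median log2 fold change of all tested genes was 0.16 instead of 0.0047, and 4962 genes were higher and 2694 lower, against 3823 and 3681 with TMM. The median of the members was then 0.81 instead of 0.65, and the same 7 genes were called higher. H3f3b stood at 0.19 with that scaling (adjusted p = 0.0878). The authors' deposited table lists log2 fold changes of 0.52 for H3f3a, 0.025 for H3f3b, 0.64 for H2afz, 0.95 for H2afv, 0.62 for H2afx, 0.95 for H2afj, -0.32 for H2afy, 0.70 for H1f0 and 2.11 for H1fx. Its adjusted p was 0.859 for H3f3b and 0.00174 for H2afy.

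**Figure D4:**
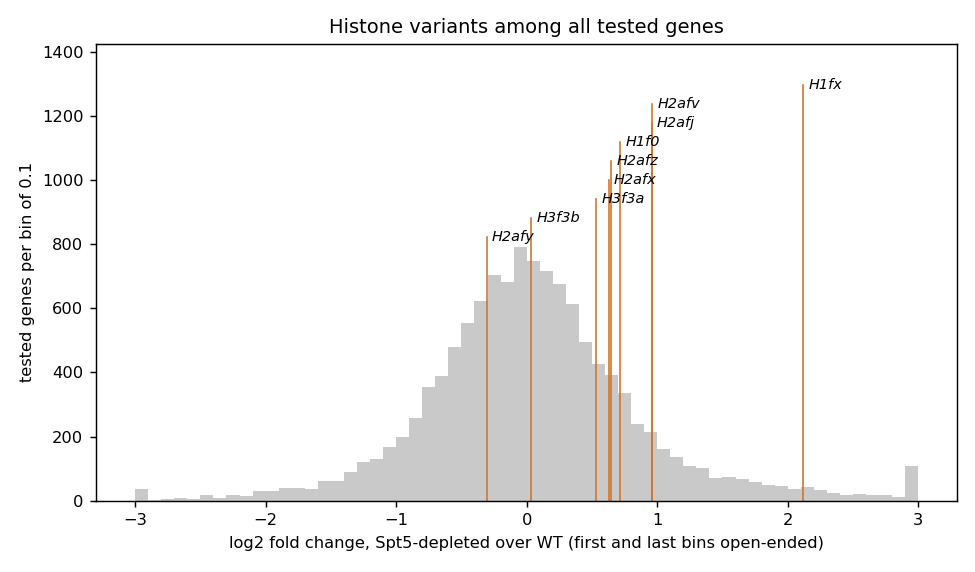
Distribution of the log2 fold changes of all 12024 tested genes in bins of 0.1 (grey bars, horizontal axis Spt5-depleted over WT, vertical axis genes per bin), with the members drawn as orange lines whose heights serve to separate the names. H2afy and H3f3b, at -0.31 and 0.035, stand in the middle of the distribution, 6 members stand between 0.53 and 0.96, and H1fx stands in the right tail at 2.12.

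Markers of other cell types were measured beside the members, and some of them differed between the groups. Their counts are to be read beside the 31.8% of all tested genes that were higher and the 30.6% that were lower. Of 6 tested macrophage and monocyte markers 4 were higher and 0 lower, and their summed level was 23.5 to 32.1 CPM in WT and 28.0, 62.8 and 49.1 CPM in depleted libraries 1, 2 and 3. In depleted library 1 this sum thus lay within the WT range, but the marker Cd14, at 2.96 CPM, was above its 2.19 to 2.59 CPM in WT. Among the 4 higher ones, all but Cd14 overlapped between the groups, Csf1r and Emr1 among them. Emr1 also lost its call without WT replicate 1 or 3 (adjusted p = 0.0913 and 0.116). The T cell markers summed to 210 to 235 CPM in WT and 174 to 197 CPM in depleted libraries, without overlap, and most of that sum was Thy1, with a mean of 175 CPM in WT and 158 CPM in depleted libraries. Of 10 T cell markers 1 was lower, Lck (log2 fold change -0.89), and 0 were higher. Among the dendritic cell markers 2 of 5 were higher, Xcr1 and Zbtb46, and 1 lower, Batf3. Their summed level was 98.3 to 116 CPM in WT and 101.0 to 102 CPM in depleted libraries. Most of it was Flt3, with a mean of 86.7 CPM in WT and 82.1 CPM in depleted libraries. NK cell markers had 1 of 3 higher and 1 lower, at a sum of 10.6 to 16.7 and 6.20 to 12.0 CPM, and the higher one, Eomes, lost its call under 4 of 13 alternatives (adjusted p 0.0626 to 0.160). Granulocyte markers had 1 tested gene, which was not called, and the erythroid marker genes were too low to test. The part of any of these cells in the changes of the members was not tested.

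Other histone variant genes moved in both directions. Of 12 named, 5 were among the genes of the deposited table and 3 were tested. Cenpa, which encodes the centromeric H3 variant, fell from 235 ± 17.2 to 124 ± 9.46 CPM (± SD of 3 libraries each; log2 fold change -0.92 ± 0.09 SE, adjusted p = 8.13e-07). Hist2h2be and Hist3h2ba, genes of H2B forms, rose by 4.62 and 1.78 on the log2 scale (adjusted p = 7.36e-13 and 1.52e-06). These H2B genes are also counted among the replication-dependent histone genes below. H2afy3 had 3, 4 and 1 counts in WT and 3, 3 and 10 in depleted libraries, and H1foo, the oocyte linker histone, 7, 8 and 4 against 9, 17 and 6. Both were too low to test.

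The replication-dependent histone genes did not show the one-sided count of the variants. Of 40 tested 10 were higher and 17 lower, with a median log2 fold change of -0.37. Among the 10 of them with a mean of 5 CPM or more, 4 were higher and 4 lower. The shares of the 40, 25.0% higher and 42.5% lower, stand beside 31.8% and 30.6% of all tested genes. Among the 9 variants 77.8% were higher and 11.1% lower, and the difference between the lists was not tested. Hist2h2be, Hist2h3c1 and Hist3h2ba were the risen genes with the smallest p (4.62, 2.57 and 1.78), and Hist1h1b, Hist2h2bb and Hist1h1e the fallen ones (-1.95, -1.05 and -0.97). Their summed level was 176 ± 23.6 CPM in WT cells against 265 ± 6.92 CPM after depletion, and without Hist2h2be it was 172 ± 23.6 and 162 ± 11.3 CPM (SD, n = 3 each). The row of Hist1h1e has a name suffix that may stand for overlap with a neighbouring gene, as do those of Chd2, Dek, Ep400, Parp1, Hjurp, Rbbp7, Lck, Csf1r and Cd74. None of the 9 variant rows has such a suffix. Canonical histone mRNA without a poly(A) tail is not captured in these libraries, so the values describe the polyadenylated part.

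The factors that place H3.3 in chromatin moved in both directions. Of 14 tested genes for H3.3 deposition and related chaperones 4 rose and 7 fell (median log2 fold change -0.14). These are 28.6% and 50%, where 31.8% of all tested genes rose and 30.6% fell. With library totals alone 5 rose and 5 fell. Asf1a, a chaperone that hands H3 and H4 to the HIRA complex, rose from 92.5 ± 4.14 to 125 ± 3.66 CPM (± SD of 3 libraries each; adjusted p = 0.000372), and Ubn1, a HIRA subunit, from 72.7 ± 9.83 to 102 ± 7.56 CPM (± SD of 3 libraries each; adjusted p = 0.000898). Chd2, a remodeller linked to H3.3, stood at 0.43 and lost its call when Spt5-depleted replicate 3 was left out (0.27, adjusted p = 0.0535). Without that library 2 genes of this list were higher. The fallen genes with the smallest p were Npm1, nucleophosmin, Dek, and Nasp, a chaperone of soluble H3 and H4, with log2 fold changes of -1.71, -0.89 and -0.87.

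Among genes for H2A.Z exchange more were lower than higher, while both H2A.Z genes were higher. Of 27 tested, 16 fell and 2 rose (median log2 fold change -0.34). These are 59.3% and 7.41%, where 30.6% of all tested genes fell and 31.8% rose. With library totals alone 11 fell and 2 rose, and without Spt5-depleted replicate 1 there were 13 that fell. Kat5, the acetyltransferase of the TIP60 complex, fell from 60.6 ± 6.38 to 22.0 ± 1.71 CPM, Yeats4, an acetyl-lysine reader shared by SRCAP and TIP60, from 98.9 ± 2.23 to 48.6 ± 2.06 CPM, and Ruvbl1, an ATPase of these complexes, from 155 ± 27.1 to 61.1 ± 4.06 CPM (± SD of 3 libraries each; adjusted p = 2.96e-08, 1.06e-07 and 2.85e-07). The risen genes were Ep400, the motor of the TIP60 complex, and Ino80d, at 0.25 and 0.71 (adjusted p = 0.0274 and 0.0285). Without Spt5-depleted replicate 3 neither was called (adjusted p = 0.126 and 0.0720). Without WT replicate 3, Spt5-depleted replicate 1 or Spt5-depleted replicate 2, 1 gene of the list was higher.

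For H2A.X, the list of kinases, readers and phosphatases had, of 20 tested genes, 5 that rose and 9 that fell (median log2 fold change -0.17). These are 25% and 45%, where 31.8% of all tested genes rose and 30.6% fell. With library totals alone 7 rose and 8 fell. Mdc1, which binds phosphorylated H2A.X, rose from 54.9 ± 4.27 to 80.6 ± 8.33 CPM, and Rnf168, a ubiquitin ligase acting after it, from 18.2 ± 1.32 to 31.4 ± 2.13 CPM (± SD of 3 libraries each; adjusted p = 0.000186 and 1.07e-05). Ppm1d, a phosphatase that acts on H2A.X, rose by 0.30. Nbn and Mre11a, of the complex that recruits ATM to breaks, fell by 1.75 and 0.70 on the log2 scale, and Mcph1, another reader of phosphorylated H2A.X, fell by 0.70.

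The shorter lists were these, to be read beside the 31.8% of all tested genes that rose and the 30.6% that fell. Of 5 tested partners of macroH2A, Hells and Parp1 fell (-0.88 and -0.44), and Parg rose by 0.24 (adjusted p = 0.0339), a call lost without any 1 of 5 libraries (all but WT replicate 1; adjusted p 0.0647 to 0.130). Of 4 genes for CENP-A deposition 1 rose, Hjurp, the chaperone of CENP-A (0.52), against 3 with library totals alone. Of 9 genes for FACT, Spt6, CAF-1 and other histone-handling factors 8 fell and 0 rose (median log2 fold change -0.42). The smallest p were those of Ssrp1 of FACT (-0.67), Rbbp7 (-0.61) and Hat1 (-0.42), and with library totals alone 5 fell. Another list held genes for the 3' processing of canonical histone mRNA and others linked to its production. Of its 10 tested genes 2 rose, Lsm10 and Zfp473 (0.45 and 0.45), and 4 fell, with Lsm11, Snapc1 and Eri1 at -0.90, -0.38 and -0.26. With library totals alone 1 gene of that list was lower, and Snapc1 and Eri1 were not called (adjusted p = 0.104 and 0.371). Without Spt5-depleted replicate 1 or 3, 2 were lower, and without WT replicate 2 or Spt5-depleted replicate 2, 1 was higher. Eri1 was also not called without WT replicate 1 or without replicate 1 or 3 of the depleted group (adjusted p 0.0751 to 0.127), and Zfp473 was lost when replicate 2 of either group was left out (adjusted p = 0.0509 and 0.0553).

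**Figure D5:**
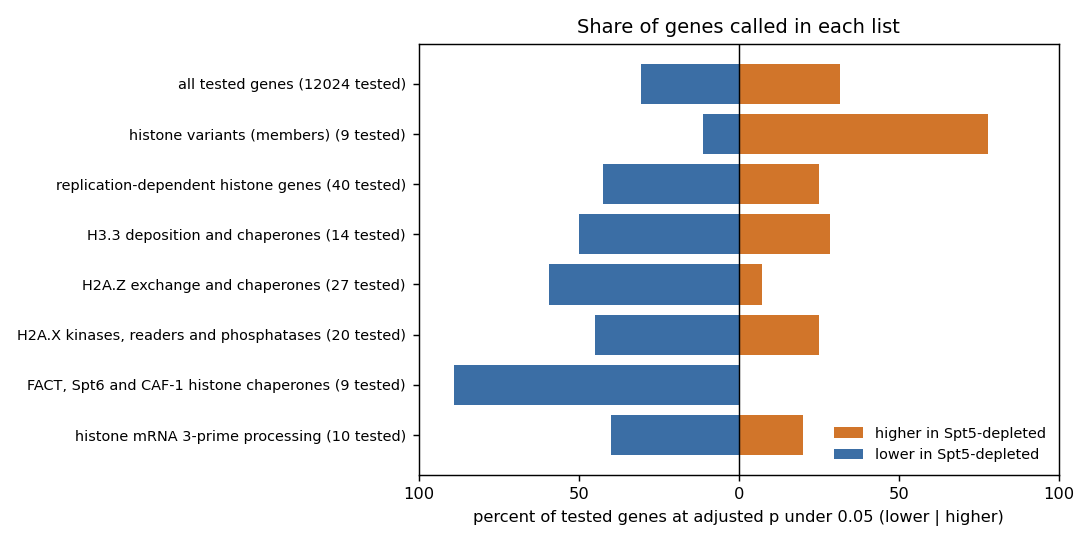
Percent of the tested genes of each list that were higher (orange, to the right) or lower (blue, to the left) after Spt5 depletion at an adjusted p under 0.05, beside all tested genes. The 9 histone variants have 77.8% higher and 11.1% lower, all tested genes 31.8% and 30.6%, and the H2A.Z exchange genes 7.41% and 59.3%.

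Most member windows upstream of the starts were rich in G and C, but not all. RefSeq windows matched 8 of the 9 genes (all but H2afx), with a median of 72.8% G and C against 52.0% over 27025 gene starts. Those starts were not limited to genes tested here. The windows of H2afj, H3f3b and H2afv, at 51.6%, 54.0% and 57.2%, were nearer that 52.0% than the other member windows. CCAAT, on either strand, was in 5 of the 8 windows, those of H3f3a, H3f3b, H2afz, H2afv and H2afj, and in 34.5% of all windows. The motif was not in the windows of H2afy, H1f0 and H1fx. Whether the motif relates to the changes of the members was not tested. GGGCGG, on either strand, was in 6 of the 8 windows and in 32.9% of all. The E2F-type letters TTTGGCGC were in 0 of the 8 and 0.437% of all windows. The other E2F-type letters, TTTCCCGC, were in 0 of the 8 and 0.929% of all, and the response element TGACGTCA in 0 of the 8 and 1.62% of all. A match of letters is a description and does not show that a factor binds there.

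Genes with the most similar pattern were looked up for the members with the largest rise and the fall. The measure was the root-mean-square difference of centred log2 CPM over the 6 libraries, over genes that averaged 5 CPM or more. For H1fx these were Smpdl3b, Eno3 and Trex1, at 0.13, 0.17 and 0.18, with log2 fold changes of 1.91, 1.89 and 1.84. For H2afy they were Elp4, Spata5 and Grsf1, at 0.022, 0.027 and 0.031, with log2 fold changes of -0.32, -0.31 and -0.29. The genes were chosen for this likeness, so their changes are a description and carry no test.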

How the data were processed

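Poly(A) RNA of 6 libraries was analysed, 3 WT and 3 Spt5-depleted, grouped by the sample titles, and 18 samples of other assays were not analysed here. Per the labels' protocols, Trizol was used for RNA and a Lexogen SENSE kit for the libraries. Tools named in the submitters' processing notes are featureCounts 1.5.0-p1, TopHat, Bowtie2 2.1.0, DESeq2 1.10.1 and cutadapt 1.10, and the build is mm9. Their roles, the annotation, strand use and the treatment of multiply mapping reads have no statement in the sources. In that table, as deposited, are raw read counts per gene, not normalised by the authors, for 14106 genes with at least 10 counts in all. Further columns are the authors' own log2 fold change and their adjusted p-value as deposited, which were printed once, where that table is named. Column headers with KO were read as the Spt5-depleted titles of the same number.

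Counts were filtered with filterByExpr (12024 genes), scaled by TMM and tested in R 4.3.3 with edgeR 4.0.16 (robust quasi-likelihood F test, two-sided, Benjamini-Hochberg over all tested genes, threshold 0.05). Standard errors were taken from the F statistic. Related genes were compared by the log2 ratio of their counts plus 0.5 with an exact permutation test over libraries. Tried in turn were upper-quartile factors, library totals, DESeq2's size factors, DESeq2 1.42.0, limma-voom 3.58.1, an average of 5 CPM or more as the filter, no filter, the replicate number as a block, leaving out each library, and for ratios 5 added to each count. The fit was tested on simulated data. Replicate pairs differed by more than sampling noise (chi-square per degree of freedom 6.13 to 31.2). The members and the gene lists were chosen with earlier results of these data known. Named genes are Supt5, the members, and up to 3 risen and 3 fallen genes of each list with the smallest p, with the other histone variants given in full. Thy1, Flt3 and Cd74 are also named, as the largest parts of their marker sums. The value of 1 further B lineage marker is not reported here. Promoter windows are RefSeq's for GRCm38.p6, and positions in the authors' build are not given.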

Additional observations from a re-analysis of the deposited data

How the results depend on the processing

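Of the 14 alternatives, all kept the direction of the 8 called members where these could be tested; H1fx is below a mean of 5 CPM and could not be tested under that filter. H2afx, H2afz, H2afv, H2afj, H3f3a and H1fx stayed past the threshold in each, with log2 fold changes of 0.57 to 0.79, 0.59 to 0.81, 0.92 to 1.12, 0.87 to 1.12, 0.44 to 0.69 and 1.93 to 2.44. With library totals alone 0 members were lower, since H2afy was not called (log2 fold change -0.15, adjusted p = 0.144). That scaling moved the median log2 fold change of all tested genes from 0.0047 to 0.16. H1f0 was not called without WT replicate 3 (0.75, adjusted p = 0.0879), and H3f3b ranged from -0.072 to 0.097 when 1 library was left out, turned to -0.072 without WT replicate 1 and was called under none of the alternatives (lowest adjusted p = 0.0878). Leaving out 1 library at a time gave 7 to 8 members called, 6717 to 7447 genes called, and differences of the log2 ratios of 0.33 to 0.62 (H3f3a to H3f3b), -0.36 to -0.25 (H2afz to H2afv) and -1.59 to -1.12 (H1f0 to H1fx). Of 48 other named genes 9 lost their call under at least 1 alternative and 0 changed direction. Deviations of libraries with the same replicate number in the 2 groups correlated at 0.038, -0.038 and -0.0006. Those of libraries with different numbers correlated at -0.071 to 0.078. The labels do not state a pairing, and these values cannot exclude one. With the number as a replicate block 7369 genes and 8 members were called, and the ratio differences were the same (exact sign-flip p = 0.25, the smallest possible). The counts of 13 to 25 per WT library limit the precision of H1fx.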
